A study of Homo sapiens with 6 samples.

Results

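The genes described here encode proteins that recognise the 3′ splice site, the boundary at which an intron ends: SF1, U2AF1, U2AF2, SF3A1, SF3A2, SF3A3, SF3B1, SF3B2, SF3B3 and SF3B4. They are 10 of the 19974 protein-coding genes on chromosomes 1 to 22 and X in the RefSeq table of GRCh38.p14. The list was chosen by function, and every peak within the RefSeq span of a gene or within 5 kb of either side was taken as a peak at that gene. What was measured is where SON and HMGB2 were found on the DNA of these genes, not the expression of the genes.

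Peak lists of 4 of the 6 samples were used, 1 list per group, all from IMR90, human fibroblasts from embryonic lung. They are SON in untreated cells, SON after 3 days and after 6 days of the treatment labelled ICM, which the labels do not expand, and HMGB2 in untreated cells. Binding was mapped by ChIPmentation, in which a transposase adds sequencing adapters to antibody-bound chromatin on the beads. SON cells were fixed with formaldehyde, and HMGB2 cells with EGS, a protein crosslinker, and formaldehyde, so target and fixation cannot be told apart between those lists. The lists held 22362, 11158 and 5583 SON peaks in the order named and 6013 HMGB2 peaks. They carry no read counts, and depth is unknown. With 1 list per group no difference between conditions could be tested. Treatment, depth and the authors' thresholds cannot be told apart as sources of a missing peak. No input list was used here.

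At an intron's end, SF1 binds the branch point, U2AF2 the polypyrimidine tract that follows it, and U2AF1 the AG dinucleotide of the splice site. The U2 small nuclear ribonucleoprotein (U2 snRNP) then takes the place of SF1 at the branch point, carrying the SF3A and SF3B complexes, whose subunits make up the rest of the list. SON is a large scaffold protein of nuclear speckles, bodies in which splicing factors gather and near which many active genes lie.

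In untreated cells SON was found at the start of 9 of these genes and at the lower end of SF3B3, whose start was not known. All 10 carried an untreated SON peak, where 57.1% of all protein-coding genes did. After 3 days of ICM 9 of the 10 did, against 41.0% of all genes, and after 6 days 6 of the 10, against 21.5%. HMGB2 peaks were present at 5 of the 10, against 23.3% of all genes. U2AF2 stood out within the list, with a SON peak among the 14 strongest of its list in each of the 3 SON lists.

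The RefSeq promoter table held 9 of the 10 genes and had no entry for SF3B3. Its sequences run from 250 bases before the start of a gene to 50 after it. The promoters of 5 genes are shown because SON peaks covered them and because they span the range seen: U2AF2 with the strongest peak, SF1 with a start peak in all 4 lists, SF3B2 with one in each SON list, SF3A3 with one in untreated cells and at 3 days, and SF3B4 with one in untreated cells alone. Each is written 5′ to 3′ on the strand of the gene. Capitals mark the letters of the searched motifs, listed after the sequences.
U2AF2, chr19:55654785-55655084, plus strand: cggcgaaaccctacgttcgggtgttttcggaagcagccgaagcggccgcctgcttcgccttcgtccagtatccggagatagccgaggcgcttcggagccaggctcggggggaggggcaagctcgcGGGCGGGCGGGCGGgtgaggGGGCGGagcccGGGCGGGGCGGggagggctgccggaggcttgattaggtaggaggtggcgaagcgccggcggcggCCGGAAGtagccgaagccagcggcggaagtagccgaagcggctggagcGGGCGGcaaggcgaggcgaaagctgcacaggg
SF1, chr11:64778493-64778792, minus strand: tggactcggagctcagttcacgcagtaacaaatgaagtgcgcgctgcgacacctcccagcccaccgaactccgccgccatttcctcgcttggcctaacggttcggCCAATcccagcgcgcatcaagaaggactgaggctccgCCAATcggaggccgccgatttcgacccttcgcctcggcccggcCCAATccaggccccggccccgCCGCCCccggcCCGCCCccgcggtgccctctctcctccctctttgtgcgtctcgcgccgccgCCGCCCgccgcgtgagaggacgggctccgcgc
SF3B2, chr11:66052114-66052413, plus strand: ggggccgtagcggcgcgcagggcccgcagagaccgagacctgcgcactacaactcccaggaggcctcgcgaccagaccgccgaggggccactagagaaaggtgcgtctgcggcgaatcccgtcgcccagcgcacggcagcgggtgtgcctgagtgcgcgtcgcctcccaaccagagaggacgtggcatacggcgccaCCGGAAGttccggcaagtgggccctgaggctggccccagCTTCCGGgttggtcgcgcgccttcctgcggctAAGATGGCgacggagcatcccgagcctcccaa
SF3A3, chr1:37989973-37990272, minus strand: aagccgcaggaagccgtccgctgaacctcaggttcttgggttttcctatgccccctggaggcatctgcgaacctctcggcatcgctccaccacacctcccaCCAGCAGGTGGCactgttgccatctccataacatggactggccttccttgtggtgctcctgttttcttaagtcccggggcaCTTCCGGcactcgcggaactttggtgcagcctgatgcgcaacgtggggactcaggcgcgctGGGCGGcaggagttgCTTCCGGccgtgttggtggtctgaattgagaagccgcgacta
SF3B4, chr1:149927754-149928053, minus strand: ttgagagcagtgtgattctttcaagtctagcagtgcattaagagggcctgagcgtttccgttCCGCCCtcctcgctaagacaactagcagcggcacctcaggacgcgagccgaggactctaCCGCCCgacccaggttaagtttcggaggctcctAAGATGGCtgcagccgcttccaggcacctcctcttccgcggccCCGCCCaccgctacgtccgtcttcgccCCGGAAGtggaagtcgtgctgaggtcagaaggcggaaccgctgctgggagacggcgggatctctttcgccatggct
Of the 300 bases of each, the untreated SON peak covered 300 in U2AF2, SF3B2 and SF3A3, 276 in SF1 and 232 in SF3B4.

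The median CpG count of these promoters lay above that of all genes. The letters of the GC box and the ETS motif were the most frequent of those searched. GC content of the 9 ranged from 60.7% to 75.7% with a median of 70.3%, where the median of 15813 protein-coding genes with an entry was 62.7%. SF3A3 (60.7%), SF3B1 (61.0%) and SF3B4 (61.7%) lay below the latter. CpG dinucleotides numbered 19 to 44 with a median of 36, where the median of all was 22, and SF3A3 with 19 lay below it. Motifs were searched on both strands as exact letters, a match is a description of letters and not of a bound site, and several were searched because the study concerns CTCF or because they are common in promoters of housekeeping genes. The ETS letters CCGGAAG were in 6 of the 9 promoters (U2AF2, SF3A1, SF3A2, SF3A3, SF3B2 and SF3B4), against 14.1% of all promoters and 23.3% of those of genes with an untreated SON start peak. The GC box GGGCGG was in 7, against 58.3% and 70.8%, and in U2AF2 several of its copies overlap. The YY1 letters AANATGGC were in 3 (SF3A1, SF3B2 and SF3B4), against 7.91% and 12.7%. The CTCF core, which is CCA, AG and GGC with any 2 bases between each, was in SF3A3 alone, against 2.72% and 3.02%, and CCAAT in SF1 alone, against 36.4% and 42.5%. The NRF1 palindrome and TATAAA were in none of the 9. For NRF1 the shares were 1.77% and 3.53%, and for TATAAA 9.75% and 5.37%, in the same order.

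**Figure D1:**
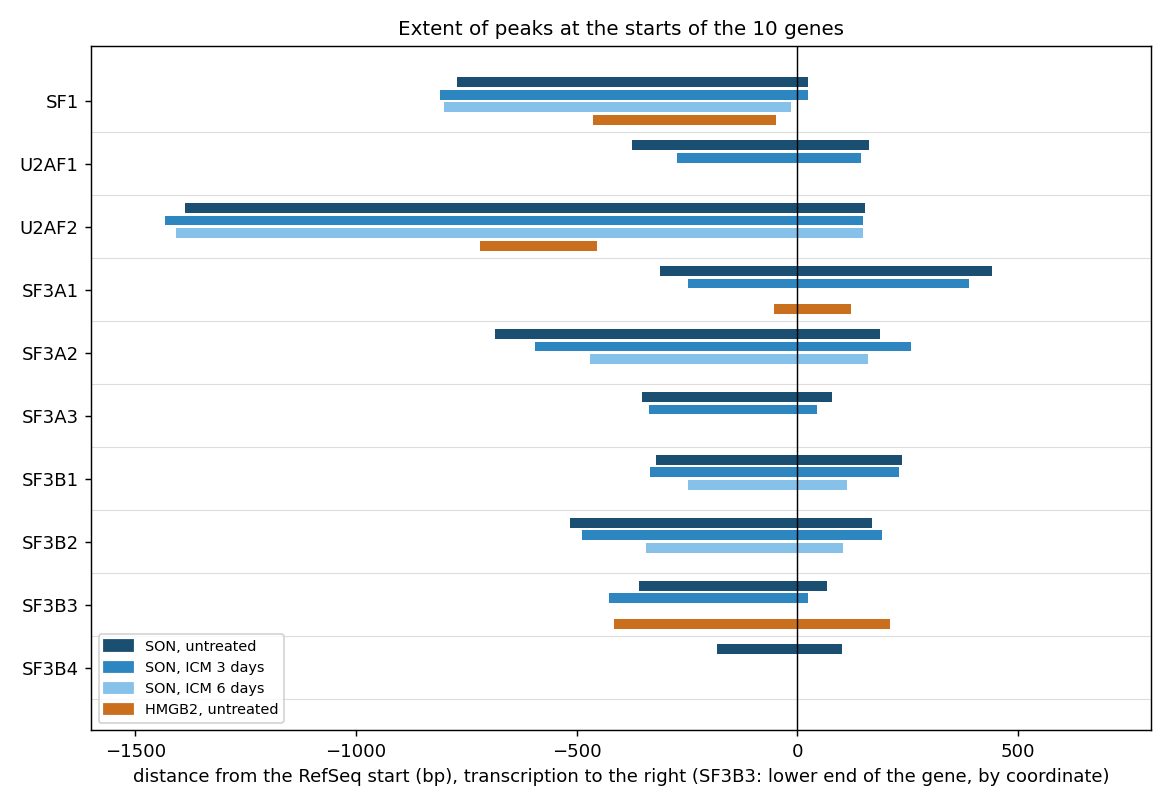
Extent of the peaks at the starts of the 10 genes, in bp from the RefSeq start, with 1 bar per peak list in each row. The untreated SON bars of all 10 genes cross the start, the U2AF2 bars reach furthest before it, and the HMGB2 bars of SF1 and U2AF2 end before it. For SF3B3 the lower end of the gene by coordinate stands for the start.

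Each gene had an untreated SON peak over the start itself, or over the lower end at SF3B3. Further untreated SON peaks, at U2AF2, SF3A3 and SF3B3, lay inside the gene or past its far end. Within 1 kb of its RefSeq start each of the 9 genes with an entry had an untreated SON peak, against 43.0% of protein-coding genes with an entry. At 3 days 8 of the 9 did, against 30.4%, and at 6 days 5 of the 9, against 12.6%. For HMGB2 it was 3 of the 9, against 16.2%. The SON peak at the lower end of SF3B3 lies at the start of the neighbouring gene COG4, and is counted with the start peaks below.

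The SON lists come from a comparison of 2 replicates by the irreproducible discovery rate (IDR), and a low global IDR means that both replicates ranked the peak high in like manner. Strength is given as −log10 p, the authors' own value per peak, for each of the 2 replicates, and a list ranks its peaks by the lower one. Ranks are within a list, and ranks from lists of different lengths show no change. How the 2 replicates were made is not given in the sources used here, and at the 10 genes 13 of 15 untreated peaks had exactly the same value in both, as did 55.9% of that list, so the spread between replicates is not visible there. At 3 days 1 of 10 peaks had equal values, against 29.0% of that list, and at 6 days 0 of 6, against 9.49%. Where they differed, the higher value was 1.31 to 3.07 times the lower at 3 days and 1.29 to 1.95 times at 6 days.

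SF1, which binds the branch point first, lies on the minus strand at chr11:64764606-64778542 and carried 1 peak in each of the 4 lists. Its untreated SON peak, chr11:64778517-64779313, had a −log10 p of 56.2 in both replicates, a rank of 392 and a global IDR of 0.0009. At 3 days the replicates had 49.7 and 66.7, with a rank of 332 and a global IDR of 0.00032. At 6 days they had 16.7 and 26.8, with a rank of 424 and a global IDR of 0.00513. The SON peaks at this gene reached 771 to 811 bp before the start, and the 6-day peak ended 14 bp before it. The HMGB2 peak, chr11:64778590-64779005, lay inside the untreated SON peak. It had a −log10 p of 15.7, by which it ranked 791 of 6013. Its 3.81-fold enrichment against the background set by the peak caller ranked 4746.

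U2AF2, the subunit that binds the polypyrimidine tract, lies on the plus strand at chr19:55655035-55674716. Its untreated SON peak, chr19:55653648-55655187, had a −log10 p of 540.3 in both replicates and was the 6th strongest of 22362. At 3 days both replicates had 326 and the peak ranked 14, and at 6 days they had 297 and 152 and it ranked 11. The global IDR was 8.6e-05 in untreated cells and 1e-05 at both later times. The peak was also wide, at 1540, 1584 and 1559 bp, which placed it 16th, 11th and 12th by width. It reached up to 1434 bp before the start. The HMGB2 peak there, chr19:55654316-55654580, was weak by comparison with its list, with a −log10 p of 8.44, a fold of 3.96 and a rank of 3902 of 6013, and it lay 455 to 719 bp before the start, outside the printed promoter. A second untreated SON peak past the far end of the gene, with 15.9 and 17.5 in the replicates, overlapped the neighbouring gene EPN1 within 1 kb of its start.

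U2AF1, the subunit that reads the AG, lies on the minus strand at chr21:43092956-43107578. Its untreated SON peak, chr21:43107407-43107944, had 18.7 in both replicates, a rank of 4097 and a global IDR of 0.00546. At 3 days the replicates had 8.56 and 26.3, the largest ratio between replicates at any of the 10 genes (3.07), with a global IDR of 0.138. No 6-day SON peak and no HMGB2 peak was listed. The start of the long noncoding RNA gene LOC101928369 lies within 1 kb of both peaks. GRCh38 holds a near-identical copy of U2AF1, LOC102724594 (also U2AF1L5), at chr21:6484623-6499248, whose promoter matches at 299 of 300 bases. None of the 4 lists had a peak at the copy, nor any peak on chromosome 21 below position 7000000. How reads that fit both places were treated is not given in the sources used here.

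The 3 SF3A genes encode the complex that joins U2 snRNP to the branch region. SF3A2, at chr19:2236824-2248655, had an untreated SON peak of 26.8 in both replicates, 24.1 and 70.7 at 3 days, and 9.12 and 15.3 at 6 days, with global IDRs of 0.00301, 0.00058 and 0.301. SF3A3, at chr1:37956975-37990022, had 27.5 in both replicates in untreated cells and 12.7 and 16.7 at 3 days, with global IDRs of 0.00291 and 0.0115, and no 6-day peak. SF3A1, at chr22:30331988-30356894, had 11.3 in both replicates in untreated cells and 6.84 and 9.35 at 3 days, and no 6-day peak. In the 6-day list as deposited the 3 genes thus differed, although SF3A2 and SF3A3 had nearly the same untreated strength, with ranks of 2000 and 1895. With the global IDR held to at most 0.05, none of the 3 had a 6-day peak. The 3-day peak of SF3A1 had a global IDR of 0.447, the largest in its list. SF3A1 alone of the 3 carried an HMGB2 peak, chr22:30356772-30356946 across its start, with a −log10 p of 4.81, a fold of 3.05, a q of 0.0182 and a rank of 5948, close to the bottom of that list. SF3A1 overlaps CCDC157 at its start, and the SF3A2 peaks lie within 1 kb of the start of PLEKHJ1, so those peaks cannot be given to 1 gene of each pair. SF3A3 also had an untreated SON peak of 8.66 inside the gene, chr1:37958614-37959033, which no later list overlapped.

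SF3B1 encodes the large subunit that clasps the branch point, and SF3B2 a subunit that binds SF3B4 within the same complex. SF3B1, at chr2:197389784-197435093, had an untreated SON peak of 33.2 in both replicates, 24.4 and 46.3 at 3 days, and 12.4 and 7.25 at 6 days, with global IDRs of 0.00207, 0.00086 and 0.362. SF3B2, at chr11:66052364-66069308, had 24.3 in both replicates, then 24.5 and 64.2, then 10.2 and 13.2, with global IDRs of 0.0035, 0.00058 and 0.156. Both had a SON peak over the start in each SON list, and neither had an HMGB2 peak there. The HMGB2 peak of SF3B2, chr11:66068270-66068620, lay 15906 to 16256 bp into the gene, with a fold of 4.74 and a −log10 p of 7.65, and no SON peak of any list overlapped it.

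SF3B3, a subunit built of WD40-like propellers at chr16:70523816-70577668, carried the most peaks of the 10 genes. It is also the longest of them, at 53.9 kb, so its peaks were counted over the widest window. In untreated cells it had 4 SON peaks. The one at its lower end, chr16:70523458-70523884, which also covers the start of COG4, had 11.8 in both replicates, and at 3 days 7.29 and 9.55 with a global IDR of 0.447. It had no counterpart at 6 days. The strongest, chr16:70553611-70554135, lay 29795 bp into the gene and was listed at all 3 times, with 19.7 and 20.98 in untreated cells, 10.4 and 7.94 at 3 days, and 13.1 and 9.31 at 6 days. SF3B3 was thus the only gene of the 10 whose 6-day SON peak lay in the gene body and not at an end. The remaining untreated peaks, of 5.85 and 7.04, both had the largest global IDR of the list, 0.431, and the weaker one, chr16:70529465-70529670, spans the small nucleolar RNA gene SNORD111B. The HMGB2 peak at the lower end, chr16:70523400-70524026, was the strongest HMGB2 peak at the 10 genes, with a −log10 p of 22.5, a fold of 7.01 and a rank of 250. A second one near the far end had a fold of 3.88 and a −log10 p of 6.17.

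SF3B4, an RNA-binding subunit that contacts the intron before the branch point, is the shortest of the 10 genes, at chr1:149923317-149927803. It had 1 peak over the 4 lists, the untreated SON peak at its start, chr1:149927701-149927985. Its −log10 p was 9.53 in both replicates, the lowest untreated start peak among the 10 genes, with a rank of 11782 and a global IDR of 0.0148.

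**Figure D2:**
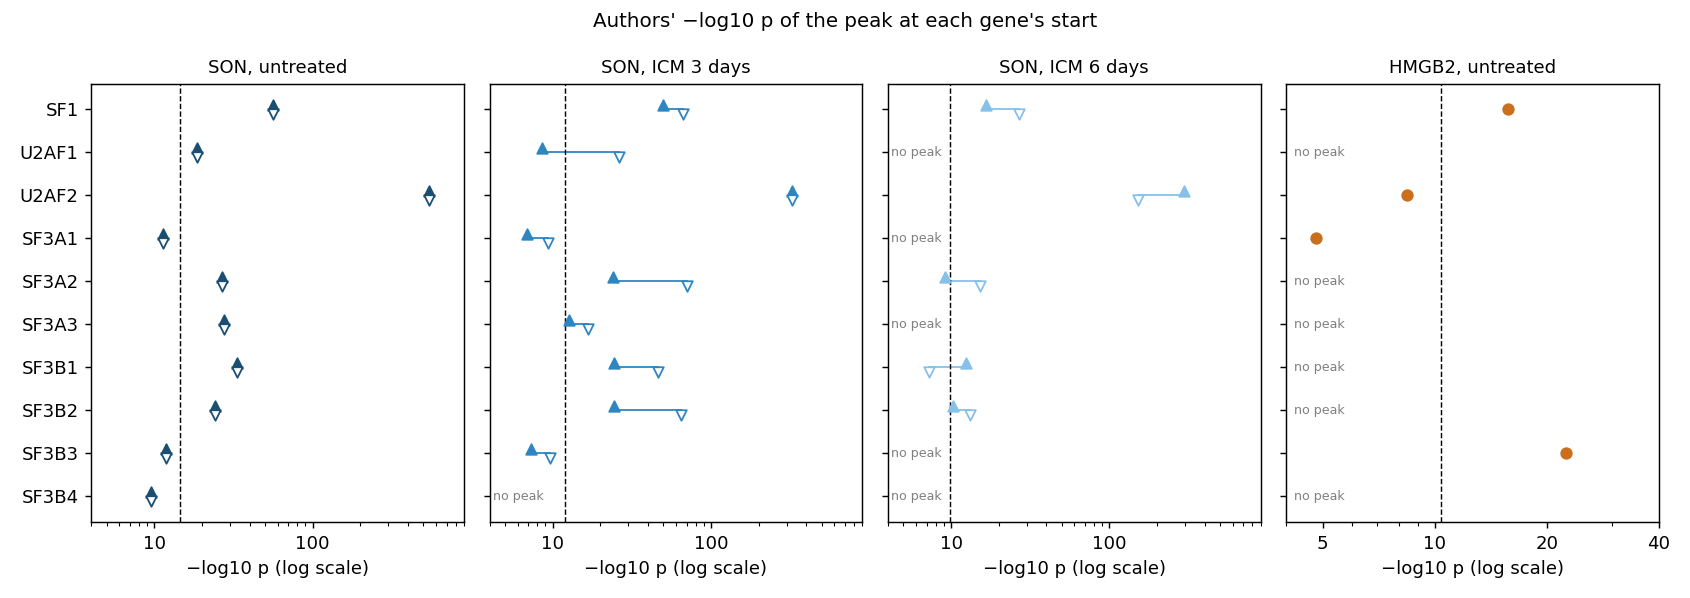
The authors' −log10 p of the start peak of each gene, on a log scale, with 1 panel per peak list. In the SON panels the filled and the open triangle are the 2 replicates, and the dot in the HMGB2 panel is its single value. The dashed line is the median over all protein-coding genes with a promoter entry and a start peak in that list. It lies at 14.6, 11.9, 9.78 and 10.4 from left to right. SF3B3 is shown by its lower end.

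Set side by side, the untreated start peaks ranged from 9.53 to 540.3 with a median of 25.6 over the 10 genes, where the median over 6792 protein-coding genes with a start peak was 14.6. At 3 days the 9 start peaks had a median of 24.1, against 11.9 over 4801 genes. At 6 days the 5 start peaks had a median of 10.2, against 9.78 over 1988 genes. The 4 HMGB2 start peaks had a median of 12.1, against 10.4 over 2567 genes. The 2 sides are not like sets where SF3B3 is counted, which is in untreated cells, at 3 days and for HMGB2. SF3B3 is counted by its lower end, whereas the medians over all genes cover only those with a promoter entry. For HMGB2, SF3B3 had 22.5, SF1 15.7, U2AF2 8.44 and SF3A1 4.81. Of the 3 with an entry, only SF1 lay above 10.4. All these medians cover only the genes with a peak in the list concerned and describe those peaks. U2AF2 came first and SF1 second in each SON list, and SF3A1, SF3B3 and SF3B4 were the lowest in untreated cells.

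The genes whose start peak was missing at 6 days were, with 1 exception, those with the weaker untreated peaks. Of the 9 genes with a promoter entry, the untreated start peak was overlapped by a 3-day peak in 8, against 68.7% of all genes with such a peak, and by a 6-day peak in 5, against 28.9%. A −log10 p of 20 divides the members into 6 stronger and 3 weaker, a value chosen after theirs were seen. All 6 stronger ones were found at 3 days and 5 at 6 days, against 97.6% and 66.6% of all genes with start peaks that strong, and SF3A3 was the exception. Of the 3 weaker ones, U2AF1 and SF3A1 were found at 3 days and SF3B4 was not, and 0 of 3 were found at 6 days, against 53.3% and 8.89% of genes with start peaks that weak. Over all peaks at the 10 genes, 10 of 15 untreated SON peaks were found at 3 days and 6 of 15 at 6 days. Of the whole untreated list 45.7% and 22.2% were. That list is not limited to peaks at genes, and its median −log10 p was 9.91. The untreated start peaks of the 10 genes had a median of 25.6, so these are not like sets.

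Fewer of these genes met a limit on the global IDR in the later lists. In untreated cells all 10 genes had a peak whose global IDR did not exceed 0.05, against 45.0% of protein-coding genes. At 3 days 6 genes had one (SF1, U2AF2, SF3A2, SF3A3, SF3B1 and SF3B2), against 24.0%. At 6 days SF1 and U2AF2 did, 2 of the 10, against 5.02% of genes. The other 4 genes with a 6-day peak had global IDRs of 0.156 to 0.362. Equal values in both replicates were seen at 13 of 15 untreated peaks, 1 of 10 at 3 days and 0 of 6 at 6 days. Over the whole lists the shares were 55.9%, 29.0% and 9.49%. With equal values, the untreated global IDR cannot be read as agreement between separate replicates. The 3 counts are therefore not a measure of a change in reproducibility.

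HMGB2 met SON at 4 of the 5 genes that carried an HMGB2 peak. At SF1, U2AF2, SF3A1 and SF3B3 an HMGB2 peak overlapped an untreated SON peak, and at SF3B2 it did not. The 4 of 5, or 80.0%, lay close to the 78.7% of all protein-coding genes with an HMGB2 peak. A peak in each of the 3 SON lists was present at 6 of the 10 genes, against 20.3% of all genes, and in all 4 lists at SF1, U2AF2, SF3B2 and SF3B3, against 10.6%. Only SF1 and U2AF2, of the 9 genes with a promoter entry, had a start peak in all 4 lists, against 5.86% of genes.

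Other genes of the same step were read by the same rule, 20 in all: further U2 snRNP subunits, relatives of U2AF and proteins that join or remodel the complex. An untreated SON peak was present at 20, a 3-day peak at 15, a 6-day peak at 9 and an HMGB2 peak at 8. Those with a peak in all 4 lists were SF3B6, which touches the branch point adenosine, U2AF1L4, a paralog of U2AF1, the helicases DDX42 and DHX15, and RBM39, a U2AF2-related splicing factor. RBM39 had the strongest untreated peak of the 20, with a −log10 p of 131 and a rank of 71, and U2AF1L4 followed with 69.7 and a rank of 238. SF3B5 and PHF5A, both small SF3B subunits, each had a peak in the 3 SON lists and no HMGB2 peak. The SON values were 33.4, 12.4 and 11.1 at SF3B5 and 18.5, 6.67 and 5.25 at PHF5A. ZRSR2, which reads the 3′ splice site of minor introns, had 1 untreated peak of 5.31 and none later.

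Genes of other spliceosomal particles are given beside them, by the same rule and against the same shares of all genes, 57.1%, 41.0%, 21.5% and 23.3%. Of 11 genes of the U1 snRNP and the Sm core, 11 carried an untreated SON peak, 10 one at 3 days, 4 one at 6 days, and 5 an HMGB2 peak. Of 16 tri-snRNP genes these were 14, 13, 8 and 7. None of these differences between lists of genes was tested.

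**Figure D3:**
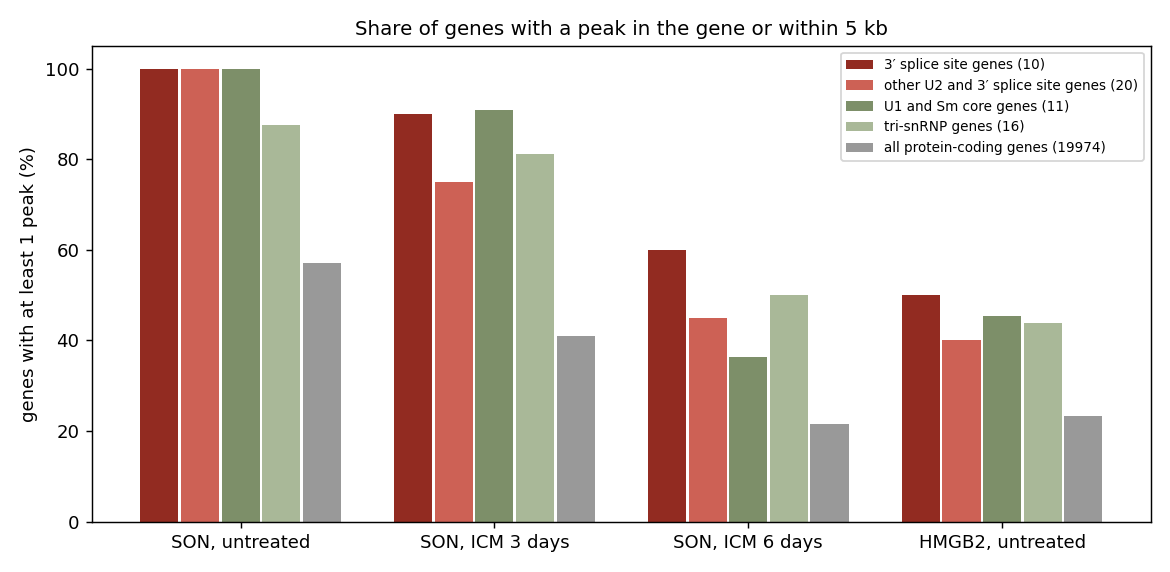
Share of genes with at least 1 peak in the gene or within 5 kb, in percent, for the 10 genes, for 3 other lists of splicing genes and for all 19974 protein-coding genes. Every list of splicing genes stands above all genes in each peak list, and the 10 genes stand at 100%, 90%, 60% and 50%.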

How the data were processed

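Per the submitters' processing notes, bcl2fastq 2.17, Bowtie2, deepTools and MACS2 were used with build hg38. Their settings are not given in the sources used here. The authors deposited SON lists in the 20-column layout of the IDR tool, with −log10 p of the lower replicate and of both replicates, −log10 of local and global IDR, and an IDR score that was not used. In the deposited HMGB2 list, values are a fold ratio over background, −log10 p, −log10 q and a score, and its peak names give a q cutoff of 0.03. Groups follow titles and treatment labels.

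Here peaks were counted as overlapping from 1 bp. Gene spans and promoter sequences came from RefSeq tables of GRCh38.p14, and all 10 symbols matched. Starts and strands came from the promoter table, which lists 15813 of the protein-coding genes. Backgrounds apply the same rule to every protein-coding gene. The counting was tested on simulated data. All 10 genes were named with all their peaks, and of the 20 further genes those with a peak in all 4 lists or with no untreated SON peak. Neighbours were named where a peak lay in their span or within 1 kb of their start. SF3B5, PHF5A and ZRSR2 fall outside that rule and were chosen after their values were seen. The genes, lists and alternatives were chosen with earlier results of these data known. Python 3.11.15, numpy 2.4.6, pandas 2.3.3 and matplotlib 3.10.9 were used.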

Additional observations from a re-analysis of the deposited data

How the results depend on the processing

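Of 93 recomputed values, 68 were counts that stayed within 1.5 times the reported one. IDR limits below refer to the largest global IDR kept. Shares of all protein-coding genes are given above for the IDR limit of 0.05 and for peaks within 1 kb of a start. None is given for the other settings. The counts under those settings therefore do not show whether the 10 genes still stood above all genes. All 10 genes had an untreated SON peak under each of the 5 other windows and at an IDR limit of 0.05, 9 with the stronger 50% of the list, and 8 at an IDR limit of 0.01 or with as many peaks as the shortest SON list. Those last settings each left 9 of 15 untreated peaks. At 3 days, the limit of 0.05 left 6 peaks, that of 0.01 left 5 peaks at 5 genes, and the stronger 50% or equal list length left 6. At 6 days either limit, 0.05 or 0.01, left 2 peaks at 2 genes. With the limit of 0.05 on every SON list, the 3-day list met 6 untreated peaks and the 6-day list 2, and of the 20 further genes 9 had a peak at 3 days and 3 at 6 days. The fall follows from the construction, since fewer peaks were counted. HMGB2 peaks were at 3 genes with no flank, because those of SF1 and U2AF2 lie before the start, and the stronger 50% left 2 peaks at 2 genes. The median rank of the start peaks, as a percentage of the list, was 9.88% in untreated cells, 9.23% at 3 days, 30.1% at 6 days and 39% for HMGB2. By replicate 1 it was 10.2%, 9.46% and 27.8% in the SON lists, by replicate 2 11.2%, 10.6% and 17.3%, and by fold 77% for HMGB2, and the cause was not tested. No paired analysis was possible because each group has 1 list. Counts could not be remade without 1 replicate, since each line of a SON list is a peak matched between both, and only the ranks were taken by each replicate alone.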
